A study of Homo sapiens with 6 samples.

Results

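AGR2 and its relatives of the protein disulfide isomerase (PDI) family were followed in MDA-MB-231 cells, a triple-negative breast cancer cell line, with and without an shRNA against the receptor ROR1. The 10 genes were AGR2, AGR3, TXNDC12, P4HB, PDIA3, PDIA4, PDIA6, TXNDC5, ERP44 and ERP29, of 57445 genes in the table. AGR2 was chosen by its difference between these same libraries, so its values are a description and carry no test, while the other 9 genes were taken by name as its family. Control cells (shCTL, 3 libraries) carried a stably integrated lentiviral pGIPZ vector with a non-silencing shRNA, and knockdown cells (shRor1, 3 libraries) carried the same vector with an shRNA against ROR1. Control and knockdown cells were transduced at the same multiplicity of infection, the ratio of virus to cells. Both were selected with 2 µg/ml puromycin and grown in serum-containing medium, and RNA was read as single reads of 50 bases. The labels call the control an empty vector, and the control columns hold the word DMSO, while whether those cells received this solvent is not given in the sources used here. Only 1 shRNA was used, and nothing states that the libraries came from separate cultures, so p-values measure only the spread between these samples. The columns carry no replicate numbers, and libraries are named below by their order in the table.

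PDI family proteins sit in the lumen of the endoplasmic reticulum (ER), where thioredoxin-like domains form, break and shuffle disulfide bonds in secreted and membrane proteins. Most members use a pair of active-site cysteines that the oxidase ERO1 keeps oxidised, and several lack one or both of these cysteines and act by binding. AGR2 is a small member best known from mucus-producing cells, where it is needed for mucin production, and in breast tumours it is mostly known as a gene of estrogen receptor-positive cells.

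The bases before the start sites of AGR2, AGR3 and PDIA6 are shown because AGR2 and AGR3 are neighbours on chromosome 7 at different levels, and because PDIA6 held the only ER stress element found among the members. The 250 bases upstream of each start, written 5′ to 3′ on the strand of the gene, were taken from the RefSeq table of GRCh38.p14, and each matched the GRCh37 genome at 1 place. They lie at chr7:16844624-16844873 (AGR2), chr7:16921608-16921857 (AGR3) and chr2:10952912-10953161 (PDIA6), all on the minus strand. Capitals mark a TATAAA word in AGR3 and the ER stress element in PDIA6.
AGR2: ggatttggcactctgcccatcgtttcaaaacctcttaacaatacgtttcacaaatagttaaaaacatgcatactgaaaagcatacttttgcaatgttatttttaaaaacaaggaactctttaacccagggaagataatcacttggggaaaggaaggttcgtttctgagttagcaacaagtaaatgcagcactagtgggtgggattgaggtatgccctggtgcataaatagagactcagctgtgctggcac
AGR3: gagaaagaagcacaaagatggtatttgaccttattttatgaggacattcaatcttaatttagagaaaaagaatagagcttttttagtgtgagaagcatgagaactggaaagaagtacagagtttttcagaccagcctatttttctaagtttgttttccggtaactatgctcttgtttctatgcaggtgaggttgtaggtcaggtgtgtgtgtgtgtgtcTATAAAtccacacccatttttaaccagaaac
PDIA6: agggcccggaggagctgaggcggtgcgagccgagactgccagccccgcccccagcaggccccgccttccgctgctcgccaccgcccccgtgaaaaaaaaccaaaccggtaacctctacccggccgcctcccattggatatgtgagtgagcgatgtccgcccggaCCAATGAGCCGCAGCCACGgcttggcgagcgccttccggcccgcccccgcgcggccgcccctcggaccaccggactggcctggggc

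Windows of 300 bases (250 before and 50 after a start site) were found for 9 of the 10 members, with a pair of windows each for TXNDC12, PDIA4, PDIA6 and TXNDC5. PDIA3 had no entry. The AGR2 window held 43.7% G and C and the AGR3 window 38.0%, whereas the PDIA6 window shown above held 74.0%, beside a median of 58.7% over 35116 windows. The ER stress element, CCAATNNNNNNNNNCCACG on either strand, is bound by ATF6 with NF-Y. It was present in 27 of the 35116 windows (0.077%) and, among the members, in PDIA6 alone, 86 bases before the start. The XBP1 core, TGACGTGG on either strand, was present in 0.729% of all windows and in TXNDC5, 92 bases before the start of 1 of its windows. The ER stress element II, ATTGGNCCACG on either strand, was present in 0.054% of windows and the estrogen response element, GGTCANNNTGACC, in 0.057%, with none of either in a member.

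Of the parts of these elements, CCAAT was present in 34.6% of all windows and in 5 of 9 members (P4HB, PDIA4, PDIA6, TXNDC5 and ERP44), and CCACG in 38.1% and in 5 of 9 members (TXNDC12, PDIA4, PDIA6, TXNDC5 and ERP29). Both words lie inside the ER stress element and CCACG inside its second form and, read on the other strand, inside the XBP1 core. The word TATAAA, present in 11.5% of windows, was found in AGR3, 31 bases before the start, and in P4HB. The AGR2 window held none of the 7 words searched. Members were counted if any of their windows held a word, and some had a pair of windows. These counts therefore cannot be set directly against the shares, which are per window. A match here is a description of the letters and not of a bound site.

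Values are TPM, a level that corrects each gene for its length and sets every library to the same sum, so that genes can be set side by side while the read depth is lost. Each of the 6 columns summed to about 1000000 TPM, between 16036 and 17033 genes reached 1 TPM, and the 50 genes with the highest values took 19.2% to 20.7% of the total. ROR1, the target of the shRNA, had 15.42, 13.49 and 20.56 TPM in shCTL and 9.34, 11.93 and 14.85 TPM in shRor1. Its means were 16.5 ± 3.65 and 12.0 ± 2.76 TPM (SD, n = 3 each), and the ranges overlapped (log2 fold change -0.43, SE 0.20, limma adjusted p = 0.984). The study reports a stable knockdown, shown for ROR1 protein by western blot, which these RNA values do not measure. Vimentin, a mesenchymal marker of the line, was between 2399 and 2920 TPM, and the estrogen receptor gene ESR1 and the progesterone receptor gene PGR were below 1 TPM in every library. Of the 9 stromal, immune and endothelial markers in the table, 4 were below 1 TPM throughout. PECAM1 was not used here.

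AGR2 (ENSG00000106541.7, chr7:16831435-16873057 in GRCh37, minus strand) had 4.75, 5.71 and 10.72 TPM in control cells and 11.52, 12.45 and 23.17 TPM in knockdown cells. All 3 shRor1 values lay above all 3 shCTL values, although the highest control, 10.72 TPM, came close to the lowest knockdown value, 11.52 TPM. The means were 7.06 ± 3.21 and 15.7 ± 6.47 TPM (SD, n = 3 each), a ratio of 2.23. On the log2(TPM + 1) scale used for all fold changes, the difference was 1.06 (SE 0.33), which is a fold of 2.08. As this contrast chose the gene, no p is given. In bulk libraries, more cells that express a gene and more RNA per cell cannot be told apart.

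The values of AGR2 can be read against the whole table. Of 16554 genes tested, 1073 (6.48%) had all shRor1 libraries above all shCTL libraries, 215 (1.3%) had all below, and 32 (0.193%) had a log2 fold change above 1. AGR2 was in the first and the last of these groups, but this contrast chose it, so its place there carries no support. Its log2 fold change was below 1 in some alternatives, such as 0.98 under quantile normalization and 0.85 without the first shCTL library. The difference was lowest without the third shRor1 library (0.76) and highest without the third shCTL library (1.36).

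AGR3 (ENSG00000173467.4, chr7:16899036-16921611, minus strand), the closest relative of AGR2 and a gene known from ciliated airway cells, lies 25979 bases from it. It was at 0 TPM in 5 libraries and at 0.06 TPM in the third shCTL library. It was therefore not tested, and no fold is given. Of these neighbours on chromosome 7, AGR2 alone reached 1 TPM.

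TXNDC12 (ENSG00000117862.6, chr1:52485803-52520863, minus strand), also called ERp18, is the remaining small member of the AGR group and keeps a pair of active-site cysteines. It had 69.99, 63.37 and 69.45 TPM in shCTL and 67.19, 72.91 and 68.14 TPM in shRor1. The ranges overlapped, with a log2 fold change of 0.04 (SE 0.07, 95% interval -0.14 to 0.21, limma adjusted p = 0.986, exact two-sided permutation p = 0.6). The 3 against 3 libraries cannot give an exact p below 0.1. Of the 50-base words in its transcript, 79.9% also occur in a gene of a later annotation that is no row of this table.

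**Figure D1:**
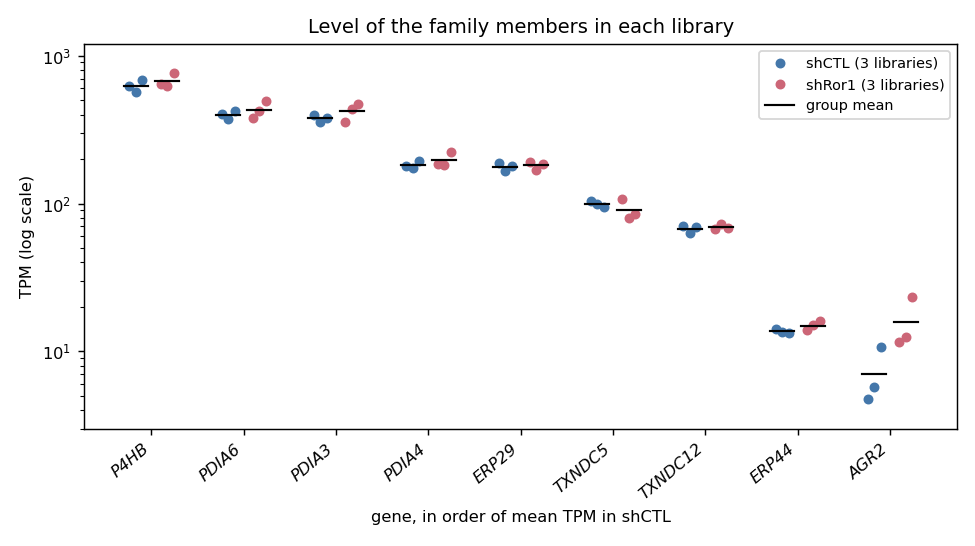
Level of 9 of the 10 genes in TPM on a log axis, with 1 point per library, shCTL and shRor1 in separate colours and the group mean as a line. AGR3, at 0 TPM in 5 libraries, is left out. P4HB lies highest, near 628 TPM in shCTL and AGR2 has the lowest mean in shCTL, at 7.06 TPM, with values from 4.75 to 23.17 TPM over both groups.

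Among the catalytic enzymes, P4HB was the most abundant. P4HB (ENSG00000185624.10, chr17:79801035-79818732, minus strand) encodes PDI itself, which is also the beta subunit of collagen prolyl 4-hydroxylase. It had 627.64, 570.68 and 684.34 TPM in shCTL and 640.47, 619.95 and 760.54 TPM in shRor1. Only the third shRor1 library lay above all controls, and the log2 fold change was 0.10 (SE 0.10, 95% interval -0.14 to 0.34, limma adjusted p = 0.984, exact permutation p = 0.5).

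PDIA3 (ENSG00000167004.8, chr15:44038592-44065477, plus strand), or ERp57, works with calnexin and calreticulin on glycoproteins and takes part in the loading of MHC class I. It had 394.45, 358.35 and 376.02 TPM in shCTL and 357.75, 437.63 and 473.64 TPM in shRor1. The first shRor1 library was below all controls and the other two were above them. With a log2 fold change of 0.16 (SE 0.11, 95% interval -0.09 to 0.41, limma adjusted p = 0.984, exact permutation p = 0.4) it had the largest value of the catalytic enzymes. The pseudogenes PDIA3P1 and PDIA3P2 share 18.6% of its 50-base words, and PDIA3P1 had 2.31 to 4.96 TPM.

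PDIA6 (ENSG00000143870.8, chr2:10923517-10978103, minus strand), known as P5 and as a partner of the chaperone BiP, had 401.68, 371.18 and 425.27 TPM in shCTL and 381.46, 423.28 and 492.32 TPM in shRor1. PDIA4 (ENSG00000155660.6, chr7:148700154-148725754, minus strand), or ERp72, an enzyme with an additional thioredoxin-like domain, had 179.25, 173.43 and 193.84 TPM in shCTL and 184.04, 181.62 and 221.52 TPM in shRor1. For both genes the third shRor1 library was the highest of all 6 and the other shRor1 libraries lay within the range of the controls. Without that library the log2 fold changes were 0.01 for PDIA6, 0.01 for PDIA4 and 0.01 for P4HB. The median over all genes tested was 0.03 in that fit, beside 0.05 with all libraries. The log2 fold changes were 0.11 (SE 0.11, 95% interval -0.14 to 0.35) for PDIA6 and 0.10 (SE 0.09, -0.12 to 0.32) for PDIA4, each with a limma adjusted p of 0.984 and an exact permutation p of 0.5. The value of PDIA6, the member with the ER stress element, lay between those of PDIA4 and PDIA3.

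TXNDC5 (ENSG00000239264.3, chr6:7881750-7911021, minus strand), or ERp46, was the only tested member with a lower mean in shRor1. It had 104.12, 99.30 and 95.27 TPM in shCTL and 106.46, 80.21 and 85.15 TPM in shRor1, with a log2 fold change of -0.14 (SE 0.11, 95% interval -0.40 to 0.11, limma adjusted p = 0.984, exact permutation p = 0.4). The first shRor1 library was the highest of the 6 and the other two were the lowest. However, 90.3% of its 50-base words are shared with the read-through gene BLOC1S5-TXNDC5 (ENSG00000259040.2), which had 144.05, 137.95 and 119.09 TPM in shCTL and 133.5, 161.89 and 137.23 TPM in shRor1. Summed, they came to 233 ± 17.3 TPM in shCTL and 235 ± 10.8 TPM in shRor1 (SD, n = 3 each), a log2 difference of 0.01, and the direction of TXNDC5 alone therefore turned. The share of TXNDC5 in the sum was 42.7% in shCTL and 38.6% in shRor1. How reads were divided between these genes was not tested.

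The members that act mainly by binding were ERP44 and ERP29. ERP44 (ENSG00000023318.7, chr9:102741467-102861334, minus strand), which returns ERO1 and unfinished proteins from the Golgi to the ER, had 14.13, 13.50 and 13.37 TPM in shCTL and 13.87, 14.99 and 15.95 TPM in shRor1. A pair of shRor1 libraries lay above all controls, and the log2 fold change was 0.12 (SE 0.09, 95% interval -0.10 to 0.33, limma adjusted p = 0.984, exact permutation p = 0.2). ERP29 (ENSG00000089248.6, chr12:112451152-112461253, plus strand), a chaperone without the catalytic cysteine pair, had 187.34, 165.00 and 179.56 TPM in shCTL and 191.64, 167.87 and 184.19 TPM in shRor1. Its log2 fold change was 0.03 (SE 0.08, 95% interval -0.16 to 0.22, limma adjusted p = 0.987, exact permutation p = 0.6), and its pseudogene ERP29P1 shares 4.38% of its words and was near 0.

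Taking the 8 tested members other than AGR2, 7 had a higher and 1 a lower mean log2 value in shRor1, and 5 were higher when libraries were scaled by the median ratio, under which TXNDC12 and ERP29 turned. None of the 8 passed an adjusted p of 0.05, as none of the 16554 genes did (0%). None of the 8 reached an unadjusted p of 0.05, beside 472 genes (2.85%) in the whole table, and none had groups that did not overlap. Their median log2 fold change was 0.10 beside 0.05 over all genes tested, of which 67.0% were higher in shRor1. The intervals above ran from -0.40 (TXNDC5) to 0.41 (PDIA3) at their widest, so changes of that size were not excluded by these libraries.

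**Figure D2:**
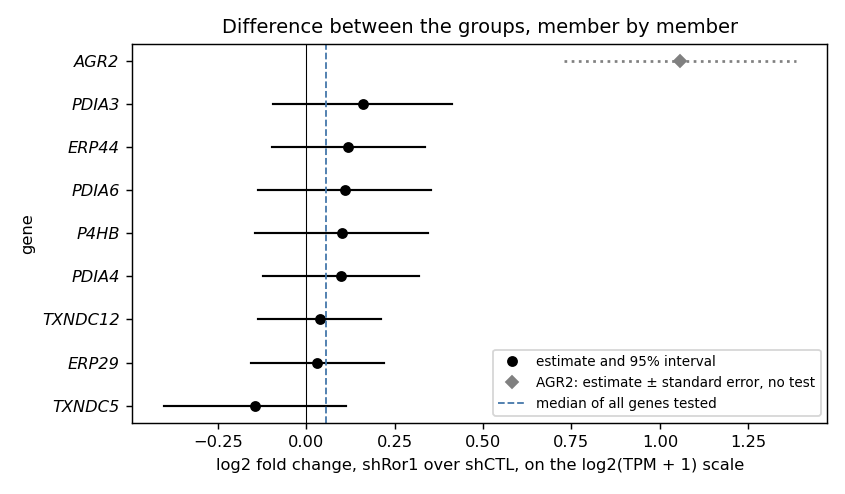
Difference between shRor1 and shCTL of the tested members on the log2(TPM + 1) scale, with the 95% interval where a test applies and the standard error for AGR2, which this contrast chose, and the median of all genes tested (0.05) as a dashed line. AGR2 stands at 1.06, and the other members lie between -0.14 and 0.16 with intervals that include 0.

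Across genes, the order of levels in shCTL ran from P4HB through PDIA6, PDIA3, PDIA4, ERP29, TXNDC5, TXNDC12 and ERP44 to AGR2 and AGR3. PDIA6 and PDIA3 did not differ beyond their spread (ratio of means 1.06, in this order in 5 of 6 libraries), nor did PDIA4 and ERP29 (1.03, 4 of 6). The other neighbours had ranges in shCTL that did not overlap, with P4HB 1.57 times PDIA6 and TXNDC12 4.95 times ERP44. The place of TXNDC5 depends on how reads were divided with BLOC1S5-TXNDC5. Their summed mean in shCTL, 233 TPM, lay above the means of PDIA4 (182 TPM) and ERP29 (177 TPM). ERP44 was above AGR2 in 5 of 6 libraries, and in the third shRor1 library AGR2, with 23.17 TPM, was above ERP44, with 15.95 TPM.

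Together the 10 genes summed to 1983, 1821 and 2048 TPM in shCTL and to 1954, 2011 and 2325 TPM in shRor1. AGR2 made up 0.239%, 0.314% and 0.523% of that sum in shCTL and 0.589%, 0.619% and 0.997% in shRor1. P4HB transcripts outnumbered those of AGR2 by factors of 132, 99.9 and 63.8 in shCTL and 55.6, 49.8 and 32.8 in shRor1. In every library AGR2 stayed below 1% of the summed level of the family.

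The other PDI family members that were not chosen (14 genes, all in the table) held 9 tested genes. Of these, 7 were higher and 2 lower in shRor1, beside 67.0% of all genes tested that were higher. The median log2 fold change of the 9 genes was 0.07 (-0.02 without the second shRor1 library). Only DNAJC10, or ERdj5, a reductase of ER-associated degradation, had an unadjusted p below 0.05, 1 of 9 beside 2.85% of all genes tested. It had 103.5, 93.05 and 92.95 TPM in shCTL and 108.21, 110.29 and 110.53 TPM in shRor1, so that the groups did not overlap, as for 6.48% of all genes tested in this direction (log2 fold change 0.18, SE 0.07, limma unadjusted p = 0.0317, adjusted p = 0.984). At the ends of the list stood TXNDC16 (0.19) and TMX2 (-0.05), and TMX2 and TMX1, both membrane-bound members, had the highest levels. PDIA2, PDILT, ERP27, CASQ1 and CASQ2 were below 1 TPM in every library.

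Enzymes of ER oxidation and reduction (11 of 12 tested) were evenly divided, with 6 higher, 5 lower, a median of 0.02 (-0.04 under median ratio scaling and -0.02 under quantile normalization) and none with an unadjusted p below 0.05. ERO1B, an oxidase that recharges PDI, had the largest value (0.29, SE 0.16), with 4.23, 4.55 and 6.05 TPM in shCTL and 5.3, 6.09 and 7.41 TPM in shRor1. QSOX1, a sulfhydryl oxidase with its own thioredoxin domains, had 341.24, 314.27 and 320.55 TPM in shCTL and 361.05, 358.05 and 343.02 TPM in shRor1 (0.12, SE 0.07). Its groups did not overlap, which makes 1 of 11, beside 6.48% of all genes tested in this direction. SELENOF, a selenoprotein bound to UGGT, was the most abundant, and SELENOM had the lowest value (-0.10).

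ER chaperones and folding factors (20 of 20 tested) were higher in 16 and lower in 4, beside 67.0% of all genes tested that were higher. Their median was 0.08, and it was 0.03 without the third shRor1 library, 0.14 without the first and 0.02 under median ratio scaling. The medians over all genes tested were 0.05, 0.03, 0.07 and 0.00 in the same fits. An unadjusted p below 0.05 was reached by 2 of the 20, beside 2.85% of all genes tested, and none passed after adjustment. DNAJB9, a BiP co-chaperone and target of XBP1, had 6.07, 7.07 and 6.63 TPM in shCTL and 7.65, 9.57 and 8.92 TPM in shRor1 (0.35, SE 0.12, limma unadjusted p = 0.0202, adjusted p = 0.984). UGGT2, a glucosyltransferase that senses misfolded glycoproteins, had 12.46, 12.94 and 13.65 TPM in shCTL and 13.71, 18.55 and 16.58 TPM in shRor1 (0.29, SE 0.12, unadjusted p = 0.0453, adjusted p = 0.984). Neither gene overlapped between the groups. Nor did HSPA5, or BiP, the main ER chaperone, named after its values were seen, with 334 to 356 TPM in shCTL and 359 to 411 TPM in shRor1 (0.14, SE 0.07). This makes 3 of 20, beside 6.48% of all genes tested with all shRor1 libraries above all shCTL libraries. CALR and CANX, calreticulin and calnexin, had the highest levels, with CANX at 0.00, and HERPUD1 had the lowest value (-0.01).

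**Figure D3:**
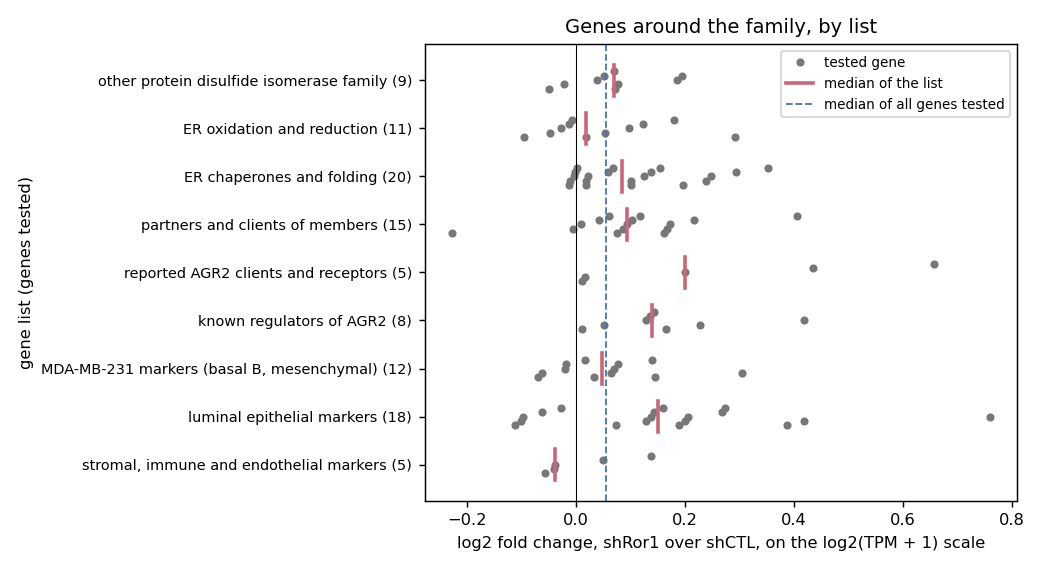
Log2 fold change of each tested gene in the fixed lists, as 1 point per gene with the median of the list as a bar and the median of all genes as a dashed line. Medians run from -0.04 for stromal, immune and endothelial markers to 0.20 for reported AGR2 clients, beside 0.05 over all genes tested.

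Partners and clients of the members held 15 tested genes of 18, of which 13 were higher and 2 lower, beside 67.0% of all genes tested that were higher. None had an unadjusted p below 0.05, and the median was 0.09. Only TAP1 did not overlap between the groups, with 26.03 to 26.59 TPM in shCTL and 27.23 to 28.5 TPM in shRor1. That is 1 of 15, beside 6.48% of all genes tested in this direction. P4HA1, the catalytic alpha subunit that pairs with P4HB, had 46.49, 51.83 and 50.51 TPM in shCTL and 45.13, 84.03 and 75.62 TPM in shRor1 (0.41, SE 0.21). Its first shRor1 library was below all controls and the other two were far above. P4HB exceeded the summed alpha subunits P4HA1, P4HA2 and P4HA3 by factors of 8.23, 6.98 and 8.73 in shCTL and 8.75, 5.16 and 6.85 in shRor1. Of the MHC class I genes served by PDIA3, B2M (0.22) had the highest level, and TAP2, the peptide transporter subunit, had the lowest value (-0.23, SE 0.15).

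The reported clients and receptors of AGR2 (5 of 7 tested) were all higher, beside 67.0% of all genes tested. Their median was 0.20, beside 0.05 over all genes tested, and none had an unadjusted p below 0.05. Without the third shRor1 library the median of the list was -0.17, and without the first shRor1 library it was 0.60, so single libraries decided it. MUC5AC, a gel-forming mucin, had 0.70, 2.68 and 6.42 TPM in shCTL and 0.87, 3.64 and 12.20 TPM in shRor1 (0.43, SE 0.75). MUC5B, another such mucin, had 0.45, 1.94 and 4.56 TPM in shCTL and 0.33, 3.21 and 15.59 TPM in shRor1 (0.66, SE 0.87). The range within each group exceeded the difference between the groups for both mucins. DAG1 (0.01) and EGFR (0.02), the most abundant of the list, were close to 0.

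Known regulators of AGR2 (8 of 10 tested) were likewise higher in all 8, beside 67.0% of all genes tested. Their median was 0.14, beside 0.05 over all genes tested, and none had an unadjusted p below 0.05. Only SMAD4 did not overlap between the groups, with 26.88 to 29.63 TPM in shCTL and 29.79 to 32.79 TPM in shRor1. This makes 1 of 8, beside 6.48% of all genes tested in this direction. SPDEF, a transcription factor of goblet cells, had 1.11, 1.45 and 2.58 TPM in shCTL and 1.07, 2.55 and 5.02 TPM in shRor1 (0.42, SE 0.38). HIF1A (0.14) and XBP1 (0.13) had the highest levels, and ERN1, which encodes IRE1, the kinase upstream of XBP1, had the smallest value (0.01). FOXA1, a pioneer factor of luminal cells, had 3.72 to 4.74 TPM in shCTL and 4.42 to 5.45 TPM in shRor1, and its relative FOXA2 had 17.33 to 22.18 and 19.23 to 26.5 TPM.

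Luminal epithelial markers were followed because AGR2 is known from luminal cells. Of 20 markers 18 were tested, of which 13 were higher and 5 lower, beside 67.0% of all genes tested that were higher. Their median was 0.15, beside 0.05 over all genes tested, and none had an unadjusted p below 0.05. Only CDH1 did not overlap between the groups, with 0.8 to 1.22 TPM in shCTL and 1.36 to 1.47 TPM in shRor1. That is 1 of 18, beside 6.48% of all genes tested in this direction. The summed level of the markers was 1443 to 1681 TPM in shCTL and 1379 to 1676 TPM in shRor1. TFF3, a trefoil factor of mucous cells, had 1.54, 2.64 and 5.16 TPM in shCTL and 1.72, 7.5 and 10.99 TPM in shRor1 (0.76, SE 0.55), and GATA3 had the lowest value (-0.11). KRT8 and KRT18 were the most abundant, and ESR1 and PGR were the only markers below 1 TPM in every library. The part of these genes in the difference of AGR2 was not tested. The 12 markers of the cell line itself were higher in 8 and lower in 4 (median 0.05, but -0.01 under median ratio scaling), with sums of 4578 to 4827 TPM in shCTL and 4627 to 5073 TPM in shRor1, and 5 tested stromal, immune and endothelial markers were higher in 2 and lower in 3 (median -0.04, and 0.08 without the second shRor1 library), with sums of 185 to 220 TPM in shCTL and 153 to 256 TPM in shRor1, mostly from CD68.

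**Figure D4:**
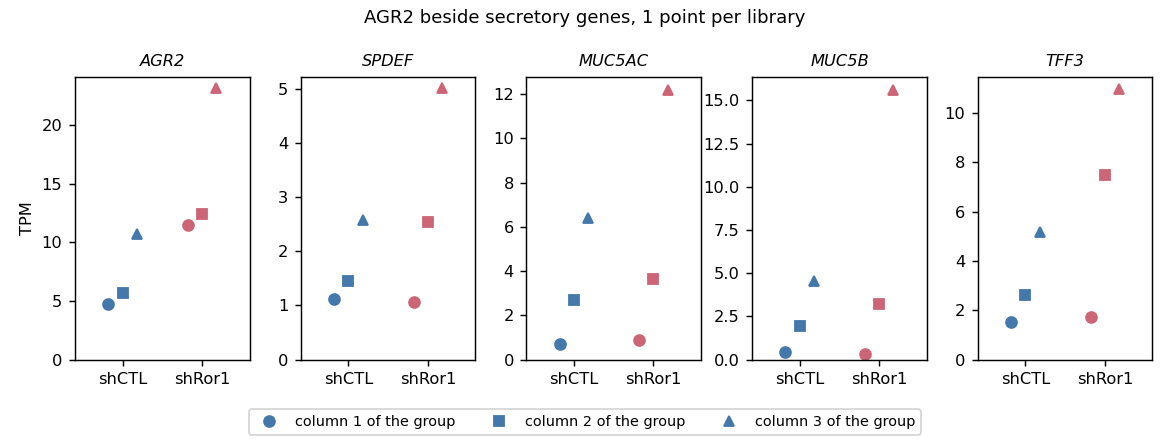
Level in TPM of AGR2, SPDEF, MUC5AC, MUC5B and TFF3, 1 point per library, with marker shape giving the order of the columns. In both groups the third library was the highest for all 5 genes, and in shRor1 the first library lay within or below the range of the controls for 4 of them but at 11.52 TPM, above all controls, for AGR2.

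In each group the third library had the highest value of AGR2, SPDEF, MUC5AC, MUC5B and TFF3. The first shRor1 library had 11.52 TPM of AGR2, above all controls, although its SPDEF (1.07 TPM), MUC5AC (0.87), MUC5B (0.33) and TFF3 (1.72) were at or near the lowest control. TFF1 had its highest value in the second library of each group (6.14 and 15.26 TPM) and so did not follow them. FOXA2 was highest in the third library of each group (22.18 and 26.5 TPM), while FOXA1 was highest in the second shCTL library (4.74 TPM). XBP1 was lowest in the third library of each group (58.07 and 65.42 TPM). SPDEF, MUC5B and TFF3 were named for the largest positive value of their lists, and MUC5AC after its values were seen.

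Protein-coding neighbours within 500 kb of AGR2 were compared as well. AHR, the dioxin receptor, 82926 bases away, had 20.83, 23.52 and 26.72 TPM in shCTL and 25.11, 36.29 and 34.71 TPM in shRor1 (log2 fold change 0.41, SE 0.16, limma unadjusted p = 0.0316, adjusted p = 0.984), and the ranges overlapped through the first shRor1 library. TSPAN13, the closest neighbour at 7274 bases, had 2.32 to 3.19 TPM in shCTL and 2.09 to 4.21 TPM in shRor1 (0.05, SE 0.21). ANKMY2 (0.12) and BZW2 (0.03) had differences within the spread, SOSTDC1 was below 0.2 TPM and LRRC72 was at 0.

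The genes with the most similar course to AGR2 over the 6 libraries were SLC22A31, AP000868.1, ITGA10, MFNG and LINC00342. Likeness was the root mean square distance between centred log2(TPM + 1) values, ranked over 16545 genes, and was 0.27, 0.30, 0.31, 0.31 and 0.31 for these genes, beside a median of 0.65 over all genes. AGR2 itself lay 0.68 from its own mean, which is the distance that a gene without any change would have. ITGA10, for example, had 0.82, 1.03 and 2.68 TPM in shCTL and 1.13, 2.51 and 5.93 TPM in shRor1. Of the secretory genes, SPDEF ranked 77 (0.39), TFF3 ranked 811 (0.50), MUC5AC ranked 12537 (0.71), MUC5B ranked 15989 (0.86) and TFF1 ranked 16378 (1.06), the last 3 being farther from AGR2 than the median gene. The distance also grows with the size of the swings of a gene. A place beyond the median gene therefore does not show a course unlike that of AGR2. Some of these genes are near 1 TPM, and the ranking rests on 6 libraries.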

How the data were processed

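RNA from 3 shCTL and 3 shRor1 libraries of MDA-MB-231 cells was measured. The authors mapped single reads of 50 bases to GRCh37 with STAR and Ensembl 73 annotation, estimated abundances with RSEM 1.2.5 and tested counts with edgeR, and deposited TPM per gene under a name that says expected counts. TPM holds no depth, and the mapped reads that the study lists per library could not be tied to single columns, so a count test was replaced by limma 3.58.1 (R 4.3.3). Genes that reached 1 TPM in 3 or more libraries (16554 of 57445) were fitted as log2(TPM + 1) with the group as the only term and a mean-variance trend, with Benjamini-Hochberg adjustment over all genes. A fold change on this scale understates that of low genes. The fit was run on simulated data that drew each gene independently, and the outcome is not given here. It therefore does not show which changes these libraries could detect.

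The members and the 9 gene lists (117 genes) were chosen with earlier results of these data known. Named genes were the 10 members, listed genes with an unadjusted p below 0.05, the 2 most abundant and the most changed genes in each direction of each list, the 5 genes with profiles most like AGR2, its protein-coding neighbours and ROR1. Further genes of the lists (HSPA5, FOXA1, FOXA2, SMAD4, CDH1, TAP1, MUC5AC, TFF1, P4HA2 and P4HA3, with genes below 1 TPM) and genes that share reads with a member were named after their values were seen. Symbols matched 55022 gene identifiers, and coordinates are those of an annotation on GRCh37. Promoter sequences came from RefSeq and 50-base words from annotated transcripts. The number of unused sample columns was 0. Alternatives were a pseudocount of 0.1, other filters, scalings, variance models and feature sets, and each library left out in turn. Protein sequences were not used here, and some genes that the rule names are not reported here.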

Additional observations from a re-analysis of the deposited data

How the results depend on the processing

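No paired analysis was possible because no column header gives a replicate number. The number of genes past an adjusted p of 0.05 (limma) was 0, and 0 in 14 of 15 alternatives. With each library left out it ranged from 0 to 1, the 1 gene being RPL39P3 without the third shRor1 library, named after its values were seen. An unadjusted p below 0.05 was reached by 472 genes, by 1363 without a filter (39104 tested), 227 with a mean of at least 5 TPM and 222 of protein-coding genes, and by 275 to 1692 with 1 library left out (275 without the second and 281 without the first shCTL library, 1692 without the first shRor1 library). Of the 472, 80.9% were higher in shRor1, against 53.9% under quantile normalization and 58.5% under median ratio scaling, which both moved the median of all genes from 0.05 to 0.00.

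The log2 fold change of TXNDC12 was -0.022 and that of ERP29 -0.029 under median ratio scaling. With 1 library left out TXNDC12 ranged from -0.0072 to 0.063 (negative without the second shCTL library) and ERP29 from -0.019 to 0.085 (negative without the second shCTL library and, at -0.010, without the first shRor1 library). TXNDC5 summed with its read-through gene, an alternative chosen after seeing the data, gave 0.011. The cause was not tested. P4HB, PDIA3, PDIA4, PDIA6 and ERP44 kept their direction in all 15 alternatives, but without the third shRor1 library P4HB fell to 0.0098, PDIA4 to 0.0067, PDIA6 to 0.011, PDIA3 to 0.073 and ERP44 to 0.073, and the lowest adjusted p of any tested member other than AGR2 was 0.435. List medians changed sign for the other PDI family (-0.020 without the second shRor1 library), AGR2 clients (-0.17 without the third shRor1 library), ER oxidation and reduction (-0.042 under median ratio scaling and -0.022 under quantile normalization), MDA-MB-231 markers (-0.013 under median ratio scaling and -0.00087 without the first shRor1 library) and stromal, immune and endothelial markers (0.023 to 0.084 without the first or the third shCTL library, or the first or the second shRor1 library). Without the third shRor1 library the medians of ER chaperones (0.028), regulators of AGR2 (0.065) and luminal markers (0.045) were lower by over 1.5 times. The median over all genes tested fell too in that fit, from 0.054 to 0.025, so these drops are not particular to the lists or members. The alignment of protein sequences and the count models were not run.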

Other observations

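The 3 shRor1 libraries did not stand above the controls equally often. Of the 16554 genes tested, 1073 (6.48%) had all 3 shRor1 libraries above all shCTL libraries, 2477 (15.0%) had only the first shRor1 library not above them, 823 (4.97%) only the second and 535 (3.23%) only the third. PDIA3 and ERP44 were among the genes with only the first shRor1 library not above the controls, 2 of 9 tested members. The same held for 5 of 15 partners and clients of the members, 3 of 11 genes of ER oxidation and reduction, 2 of 8 regulators of AGR2, 4 of 20 ER chaperones, 1 of 5 stromal, immune and endothelial markers, 3 of 18 luminal markers, 1 of 9 other PDI family genes, 1 of 12 MDA-MB-231 markers and 0 of 5 AGR2 clients. The first shRor1 library had the lowest ROR1 value of the 6 (9.34 TPM).

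RPL39P3, a ribosomal protein pseudogene, had 41.49, 38.37 and 41.68 TPM in shCTL and 0, 0 and 21.66 TPM in shRor1. With all libraries its limma adjusted p was 0.984. It was the single gene past the threshold when the third shRor1 library was left out (limma adjusted p = 8.95e-06). That fit dropped the only shRor1 library above 0, and the gene passed the filter through shCTL alone. The remaining shRor1 values, both 0, hold no spread, so this p carries no support for a difference.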
